A study of Mus musculus with 42 samples.

Results

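Blood transcriptomes were compared between electrode sites in 14 of the 42 mice of the study, all 3xTg-AD animals of 6 months that had received transcranial direct current stimulation (tDCS, a weak constant current passed through the skull). The active electrode lay over the prefrontal cortex in 6 mice and over the hippocampus in 8. Mice were chosen by the strain, age, stimulation and site in their labels, and only autosomal genes are described. The 3xTg-AD strain carries human disease transgenes, among them MAPT P301L and APP Swedish, on a hybrid C57BL/6;129 background and develops amyloid and tau pathology in the brain. Whole blood RNA was read from the 3′ ends of transcripts, after a kit step that depletes globin RNA. The same site comparison was made in 9 sham 3xTg-AD mice of 6 months (4 prefrontal, 5 hippocampal), which carried the implant but received no current, and in 7 tDCS-treated C57BL/6 mice of 6 months (4 prefrontal, 3 hippocampal). The 3 comparisons shared no mouse.

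Site was not the only difference between the groups. By the methods of the study, prefrontal mice had more but shorter sessions spread over a longer period than hippocampal mice, so site, schedule and time since surgery cannot be told apart. In all mice scalp tissue was removed and the electrode was cemented to the skull under anaesthesia. Blood is a mixture in which erythroid cells carry haemoglobin and membrane transcripts, platelets carry granule and adhesion transcripts, and white cells carry immune transcripts. Keratins, loricrin and small proline-rich proteins, in contrast, are made in the epidermis, where they build the filaments and the cornified envelope of the skin surface, and sebaceous glands make desaturases and elongases for skin lipids. In bulk blood, fewer cells of a type and less RNA per cell cannot be told apart.

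Totals ranged from 16188537 to 24392536 reads in prefrontal and from 15909207 to 37747255 reads in hippocampal mice. Haemoglobin genes took 25.4 to 50.0% of the reads in prefrontal and 17.5 to 44.6% in hippocampal mice. Prefrontal mice had fewer genes with a read, 13272 ± 679 (SD, n = 6) against 14368 ± 482 (n = 8), which passed the exact permutation test (two-sided, p = 0.00333, adjusted over 4 library measures p = 0.0133). This count was not adjusted for total reads, whose mean was 21477620 in prefrontal and 26192805 in hippocampal mice. The share of reads on mitochondrial genes was 3.28 to 7.42% (mean 5.03%) against 4.84 to 9.12% (mean 7.25%; exact permutation p = 0.0283, adjusted p = 0.0566), and its part in the results was not tested. The sites also lay apart on the first principal component (21.9% of the variance), with prefrontal mice 4 and 1 farthest out. Trimmed mean of M-values (TMM) scaling, which aligns the bulk of the genes between libraries, gave these 2 mice factors of 0.471 and 0.515, against 0.809 to 1.24 in the other prefrontal and 0.926 to 1.58 in the hippocampal mice. Levels below are CPM (counts scaled to a common library size) on the TMM scale. The methods describe the 3xTg-AD mice as male, but prefrontal mice 2, 3 and 4 had 128 to 394 reads of Xist, the RNA of the inactive X chromosome, and at most 2 reads on Y-linked genes, whereas hippocampal mice had at most 8 Xist reads and 596 to 1211 reads on Y-linked genes. Counts are therefore given with and without these 3 mice. Hippocampal mouse 7 had 3 reads of Npy and sham hippocampal mouse 5 had 0, whereas the other 24 3xTg-AD mice of the series had 102 to 1261 CPM (on total reads) and the 16 C57BL/6 mice at most 2 reads. At 17 other autosomal genes whose levels in the 24 mice and in C57BL/6 mice lay at least 3-fold apart, both mice were on the 3xTg-AD side.

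**Figure D1:**
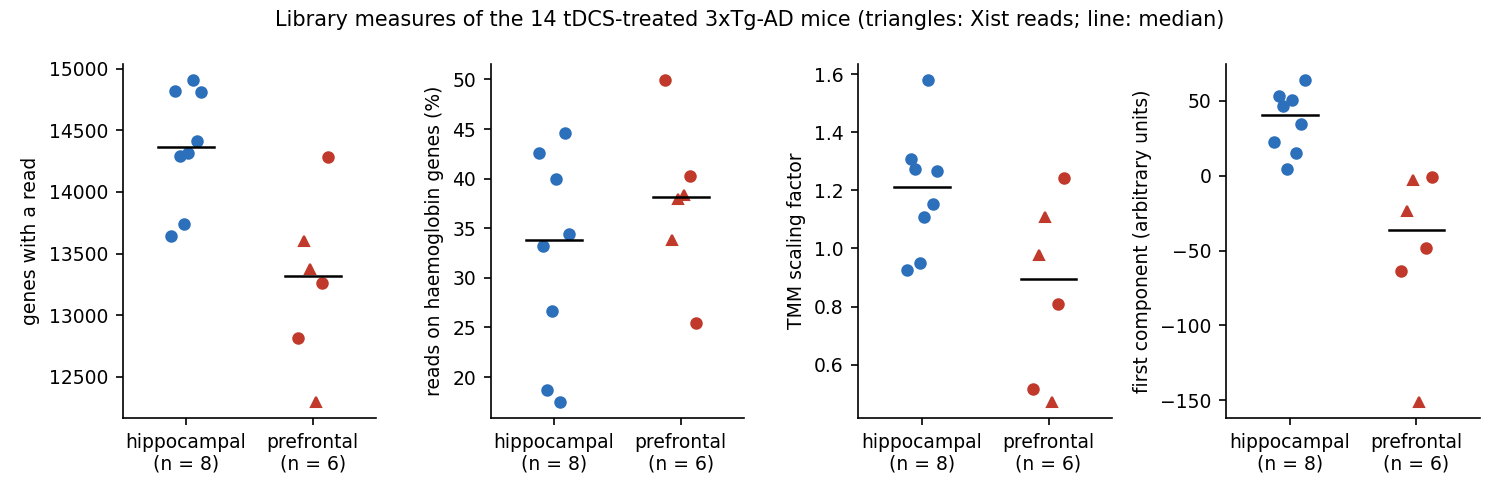
Genes with a read, percent of reads on haemoglobin genes, TMM scaling factor and first principal component of the 14 mice, with 1 point per mouse, triangles for mice with Xist reads and lines for medians. Prefrontal mice had 12296 to 14283 genes with a read and hippocampal mice 13642 to 14909, and the sites did not overlap on the first component.

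Of 15064 autosomal genes tested, 80 were differentially expressed genes (DEGs) between the sites, at a false discovery rate (FDR, the Benjamini-Hochberg adjusted p of edgeR's quasi-likelihood test) under 0.05. This was 0.531% of the genes, with 34 higher (0.226%) and 46 lower (0.305%) in prefrontal mice, while 2836 genes (18.8%) had an unadjusted p under 0.05. The split depended on scaling: with libraries scaled by total reads alone, 1 gene was higher and 165 were lower, and the median log2 fold change of all autosomal genes moved from -0.14 to -0.59. All 80 genes kept their direction under that scaling, and 1 of the 34 higher and 45 of the 46 lower genes were still DEGs. Groups did not overlap for 14 of the 34 higher and 21 of the 46 lower DEGs, against 0.266% and 0.378% of all genes tested. Without the 3 mice with Xist reads there were 25 DEGs (22 higher, 3 lower), and 15 of the 34 higher and 2 of the 46 lower genes were among them. That fit has fewer prefrontal mice, so a lost call does not show dependence on the mice with Xist reads. Without prefrontal mice 1 and 4 there were 3 DEGs, and without hippocampal mouse 7 there were 61 (21 higher, 40 lower). When single mice were left out in turn, 3 of the higher and 12 of the lower genes were DEGs each time, while 23 higher and 26 lower genes lost the call in 5 or more of the 14 fits.

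Promoter sequences are shown for 3 lower DEGs of the cornifying epidermis (Lor, Sprr1a, Krtdap) and for 2 higher DEGs, as the 100 bases before the gene start in RefSeq (GRCm38.p6), to show the letters counted below. Capitals mark TATAAA and TGANTCA, the letters of a TATA box and of an AP-1 site, searched on both strands. The sequences shown do not stand for all lower DEGs. In the same 100 bases Psapl1 and Scd3, lower DEGs not shown, held 0 TATAAA, and TGANTCA occurred 1 time in Psapl1 and 0 times in Scd3.
Lor, chr3:92083143-92083242, minus strand: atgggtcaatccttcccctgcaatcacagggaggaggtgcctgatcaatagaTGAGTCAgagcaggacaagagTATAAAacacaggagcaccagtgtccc
Sprr1a, chr3:92485882-92485981, minus strand: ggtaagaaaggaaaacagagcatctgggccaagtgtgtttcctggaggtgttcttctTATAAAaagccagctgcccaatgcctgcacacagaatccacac
Krtdap, chr7:30787805-30787904, plus strand: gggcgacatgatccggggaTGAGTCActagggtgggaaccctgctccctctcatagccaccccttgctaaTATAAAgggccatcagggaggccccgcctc
Map2k3, chr11:60931954-60932053, plus strand: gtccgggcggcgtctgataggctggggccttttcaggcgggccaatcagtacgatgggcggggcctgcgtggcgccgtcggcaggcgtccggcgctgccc
Ybx1, chr4:119294514-119294613, minus strand: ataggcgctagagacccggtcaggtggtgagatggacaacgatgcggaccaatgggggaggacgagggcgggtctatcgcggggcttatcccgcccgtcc
In the 250 bases before the start, TATAAA occurred in 6 of the 28 lower DEGs with a RefSeq promoter (21.4%) and in 0 of the 25 higher DEGs, against 7.16% of 10358 autosomal genes. TGANTCA also occurred in 6 of the 28 lower and 0 of the 25 higher DEGs, against 4.88%. AGATAA, the letters of a GATA factor site, which can share an end base with TATAAA, occurred in 3 lower (10.7%) and 1 higher DEG (4%), against 6.35%. These are matches of letters and not sites shown to be bound.

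Of the gene lists examined, keratinocyte markers held the most lower DEGs. Of the 46 lower DEGs, 24 had at most 3 reads in each prefrontal mouse and 8 had no read in any of them. Genes of this kind passed the authors' low-count filter through reads in other mice. All 16 keratinocyte markers had fitted levels below 0, with a median log2 fold change of -5.25 against -0.14 over all autosomal genes, and 6 of them were lower DEGs (Sprr1a, Krtdap, Lgals7, Lor, Krt1 and Perp). The marker levels summed to 1.55 to 40.2 CPM (median 7.98) in prefrontal and 18.4 to 1369 CPM (median 82.1) in hippocampal mice. The hippocampal mice were higher and more widely spread, and the ranges overlapped. The difference of -3.18 on the log2(CPM + 1) scale passed the exact permutation test (two-sided, p = 0.00300, adjusted over 13 cell type lists p = 0.0195). Without the mice with Xist reads it was -3.45 (adjusted exact permutation p = 0.118), and none of the 16 genes was a DEG. Their median log2 fold change was then -7.31, with none above 0. Fewer prefrontal mice leave few arrangements for the exact test, so the lost calls do not show dependence on the mice with Xist reads. The 16 genes are markers of skin and not of blood cells, and the part of skin tissue in this result was not tested.

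Among envelope and barrier genes, Lor, which codes for loricrin, the main protein of the cornified envelope (chr3:92080271-92083142, GRCm38), had no read in any prefrontal mouse and 0.0319 to 17.6 CPM (median 1.97) in hippocampal mice. Against a floor of 3 reads over the prefrontal group its level there was at least 254-fold lower (FDR = 0.0206). Spink5, a protease inhibitor of the upper epidermis, also had no prefrontal read, and 0.139 to 9.22 CPM (median 1.98) in hippocampal mice, which made it at least 87.0-fold lower (FDR = 0.00980). Every hippocampal mouse was above every prefrontal mouse for both genes, but the lowest hippocampal mice had 1 Lor read and 3 Spink5 reads. With so few reads this separation lies at the limit of detection. The 254-fold bound is on pooled reads, of which hippocampal mice 3 and 5 gave 519 and 738 of 1669.

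Sprr1a, a small proline-rich precursor of the envelope, had 3 reads in the prefrontal mice together and 862 in the hippocampal mice, a ratio of rates of 131 (95% exact counting interval 44.8 to 638, FDR = 0.00855). Krtdap, a secreted protein of differentiating keratinocytes, had 2 and 707 reads, a ratio of 162 (44.6 to 1337, FDR = 0.0120). Both genes were apart between the groups, and the intervals cover counting error only. Prefrontal mouse 4 gave 2 of the 3 Sprr1a reads and both Krtdap reads. Without it the ratio was 357 for Sprr1a (FDR = 0.00830), and Krtdap was at least 97.6-fold lower (FDR = 0.0245).

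Lgals7, a galectin of stratified epithelia, reached 0.0864 CPM in prefrontal mice and had a median of 4.46 CPM in hippocampal mice (log2 fold change -7.08 ± 1.28 (SE), FDR = 0.0167). Its ranges overlapped because hippocampal mice 7 and 8 had no read either. Krt1, a keratin of suprabasal keratinocytes, had 0 to 0.282 CPM against 0 to 14.2 CPM (-6.2 ± 1.31, FDR = 0.0396), and hippocampal mouse 1 had none. Perp, a desmosomal membrane protein, had 0.0664 to 1.32 CPM against 0.886 to 108 CPM, with the top value in hippocampal mouse 8 (-5.26 ± 1.13, FDR = 0.0410). Without that mouse Perp stood at -3.12 (FDR = 0.0217). Krt1 and Perp each lost the call in 8 of the 14 fits that left out 1 mouse (FDR up to 0.110 and 0.125).

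Further lower DEGs of this kind were Flg (filaggrin, -7.56), Lce3f (a late envelope protein, -7.55), Slurp1 (-7.49), Krt19 (-5.92), Krt79 (-6.66) and Defb6 (a beta-defensin, -8.01). Hippocampal mouse 8 held 590 of the 734 hippocampal Slurp1 reads, and without it Slurp1 stood at -4.91 (FDR = 0.0677). Except for Krt79, these genes lost the call in 9 to 12 of the 14 fits that left out 1 mouse. Where one group has almost no read, such fitted log2 fold changes depend on the prior count and are no bounds. Among families picked after their values were seen, 3 of 25 keratins were lower DEGs (median -4.14) and 2 of 27 small proline-rich and late cornified envelope genes (median -6.36), 24 of which had at most 3 reads in every prefrontal mouse. Such members passed the authors' low-count filter through reads in other mice, and this selection bears on the medians and on the count of 24.

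Several further lower DEGs, picked after their values were seen, code for proteins that handle lipids. Psapl1, a prosaposin-like protein, had the smallest p of the comparison, with 1 read in the prefrontal mice and 1.31 to 44.0 CPM (median 6.29) in hippocampal mice (-9.83 ± 1.08, FDR = 0.000212). Scd3, a stearoyl-CoA desaturase of sebaceous glands (chr19:44203269-44244016), had 1 prefrontal read as well and 0.455 to 143 CPM (median 8.83) in hippocampal mice (-11.25 ± 1.5, FDR = 0.00141). Both genes were apart between the groups and highest in hippocampal mouse 7, without which they stood at -9.17 (FDR = 2.28e-05) and -10.31 (FDR = 0.000373).

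Scd1, the widely expressed desaturase, was read in all 14 mice, with 2.45 to 18.3 CPM (median 9.70) in prefrontal and 19.9 to 84.1 CPM (median 52.6) in hippocampal mice (-2.24 ± 0.40, FDR = 0.0158). Its ranges were close but did not overlap. Elovl3, an elongase of very long chain fatty acids in sebaceous glands and brown fat, was read in 1 prefrontal mouse and had 0.294 to 5.60 CPM in hippocampal mice (-5.62 ± 0.93, FDR = 0.01003). Elovl4, the elongase of the ultra-long lipids of the skin barrier, had at most 0.133 CPM in prefrontal mice and a median of 2.93 CPM in hippocampal mice (-6.21 ± 1.1, FDR = 0.0152). Hippocampal mouse 7, the highest for Scd3, had no Elovl4 read, so these genes did not share one order of mice.

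Cidea, a protein of lipid droplets, had 16 reads in prefrontal mouse 2 and none in the other 5, against 1.61 to 12.4 CPM in hippocampal mice (-5.3 ± 0.86, FDR = 0.00980). Far2, a reductase that makes fatty alcohols for waxes, was lower too (-4.33 ± 0.86, FDR = 0.0285). Tmem45a, a membrane protein of keratinocytes, had 1 against 674 reads, and Sec14l4, a lipid-binding protein, had 0 against 279, at least 42.5-fold lower. Like Psapl1 and Scd3, Tmem45a, Sec14l4, Cidea, Elovl3, Elovl4, Sprr1a, Krtdap, Krt79 and Spink5 remained DEGs when any 1 mouse was left out. Without the 3 mice with Xist reads, Psapl1 and Cidea were still DEGs (FDR = 0.0352 and 0.0242). The others of these genes then had FDRs of 0.0534 to 0.143 and were not DEGs, in a fit with fewer prefrontal mice.

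**Figure D2:**
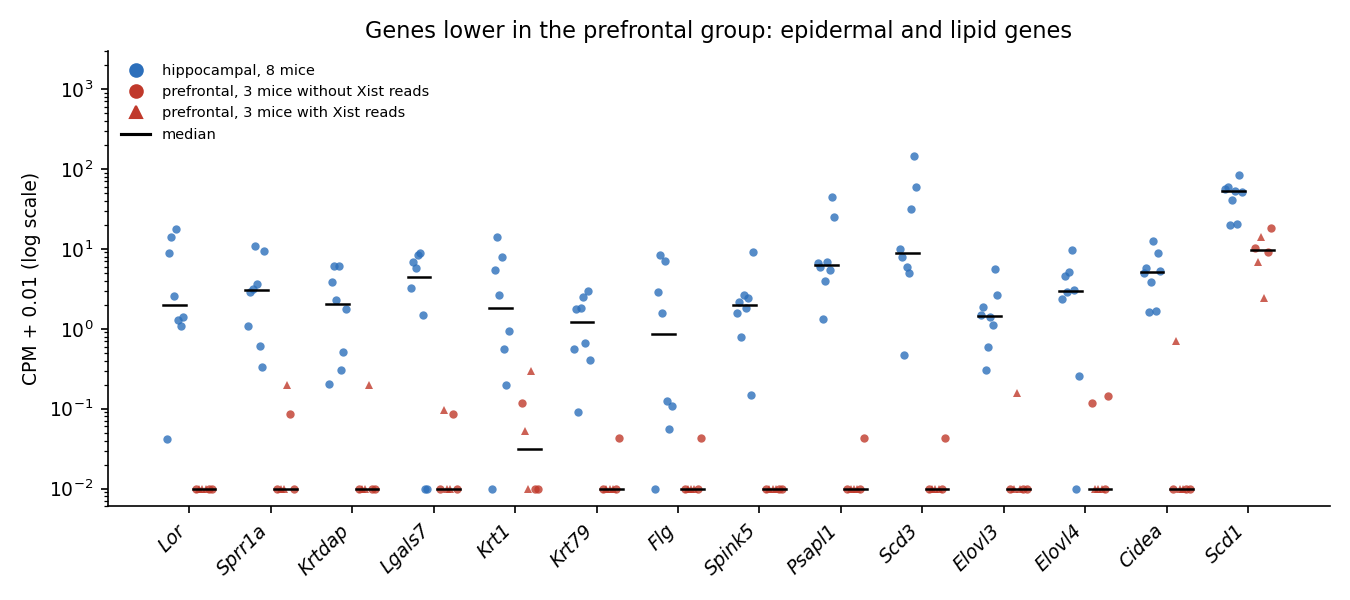
Level of 14 lower DEGs in each of the 14 mice, as CPM + 0.01 on a log scale, with 1 point per mouse, triangles for mice with Xist reads and lines for medians. For Scd1 prefrontal mice reach 18.3 CPM, for the other 13 genes they reach at most 0.692 CPM, and hippocampal mice spread widely.

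The other 22 lower DEGs had log2 fold changes from -6.98 to -1.21 (median -2.51) and included genes that blood cells express. Rpl4, a protein of the large ribosomal subunit, was the 1 DEG among 74 ribosomal protein genes (median of the 74 -0.076), with 37.9 to 144 CPM (median 59.1) against 104 to 336 CPM (median 189.7; -1.6 ± 0.35, FDR = 0.0436). Its ranges overlapped, its call was lost when any of 9 mice was left out (FDR 0.0188 to 0.129), and pseudogenes make its count uncertain. Pfn1, the actin-binding profilin, had 0.306 to 3.44 CPM against 3.65 to 31.8 CPM without overlap (-2.64 ± 0.50, FDR = 0.0217).

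Ltb, the lymphotoxin beta of lymphocytes, had 3.58 to 13.8 CPM (median 5.98) against 9.07 to 42.6 CPM (median 24.5; -1.71 ± 0.37, FDR = 0.0419). Coro1a, an actin regulator of white cells, had 6.69 to 25.1 CPM against 23.2 to 55.1 CPM (-1.27 ± 0.29, FDR = 0.0488). Both overlapped between the sites, and leaving out single mice ended the call of Ltb in 9 and of Coro1a in 12 of the 14 fits. Genes of RNA and protein handling among the lower DEGs were Alyref, an mRNA export factor (-1.53), C1d, a cofactor of the nuclear exosome (-1.75), Tmed5, a receptor of secretory vesicles (-1.21), and the mitochondrial ribosomal genes Mrpl1 (-1.66) and Mrpl42 (-1.3). Their calls were lost in 11 (Alyref and Mrpl1), 9 (Tmed5), 8 (Mrpl42) and 7 (C1d) of the 14 fits.

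Higher DEGs were mostly transcripts present in every mouse, with log2 fold changes from 0.91 to 4.49 (median 1.61, or 0.93 with total-read scaling). In 17 of the 34 the highest prefrontal value was that of mouse 1 and in 9 that of mouse 4, the mice with the lowest TMM factors. Map2k3, the kinase that activates p38 MAP kinases (chr11:60932033-60952811), led with 265 to 452 CPM (median 365) in prefrontal and 111 to 187 CPM (median 147) in hippocampal mice (1.26 ± 0.22, FDR = 0.0137). The groups were apart, and Map2k3 stayed a DEG when any 1 mouse was left out (FDR 0.0150 to 0.0431) and without the mice with Xist reads (1.34, FDR = 0.0352). With total-read scaling it was 0.72 (FDR = 0.138).

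Rab10, a small GTPase of vesicle transport, had 94.0 to 178 CPM (median 122) against 26.4 to 62.0 CPM (median 54.3; 1.39 ± 0.24, FDR = 0.0152). Ybx1, a cold shock domain protein that binds RNA and DNA, had 110.4 to 395 CPM (median 210.2) against 62.3 to 100.02 CPM (median 84.7; 1.4 ± 0.25, FDR = 0.0158). Pim1, a kinase induced by cytokines, had 123 to 609 CPM (median 199) against 29.8 to 114 CPM (median 78.2; 1.77 ± 0.34, FDR = 0.0248). None of these 3 genes overlapped between the sites, and prefrontal mouse 1 gave the top value for all 3.

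Hspb6, a small heat shock protein, had 7.02 to 42.7 CPM (median 12.5) against 2.40 to 6.37 CPM (median 4.01; 1.97 ± 0.36, FDR = 0.0178) and stayed a DEG when any 1 mouse was left out. Atg2a, a lipid transfer protein of growing autophagosomes, had 7.63 to 17.7 CPM against 2.46 to 6.61 CPM (1.48 ± 0.29, FDR = 0.0248). Neither gene overlapped between the sites. Ftl1, the ferritin light chain, was the 1 DEG among 19 genes of haem synthesis and iron, with overlapping ranges of 91.3 to 181 CPM and 45.7 to 101 CPM (1.05 ± 0.23, FDR = 0.0436), but its call was lost when any of 13 of the 14 mice was left out (FDR 0.0358 to 0.127), and it has close pseudogenes.

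Other higher DEGs of signalling and growth were Gng5, a G protein gamma subunit (1.93 ± 0.37, FDR = 0.0217), Akt2, a kinase of insulin signalling (0.99 ± 0.20, FDR = 0.0348), and E2f1, a transcription factor of S phase entry (1.78 ± 0.37, FDR = 0.0396). Of these, Akt2 was apart, with 39.7 to 58.6 CPM against 17.8 to 31.7 CPM. Ssbp2, which binds single-stranded DNA (2.4 ± 0.48), Lpcat3, which remodels membrane phospholipids (2.06 ± 0.41), and Srp72, of the signal recognition particle (1.51 ± 0.30), had FDRs of 0.0290, 0.0290 and 0.0296. Leaving out single mice ended the call of Gng5 in 1, Ssbp2 and Srp72 in 5, Lpcat3 in 6, E2f1 in 7 and Akt2 in 8 of the 14 fits. Calcium genes were Stim1, the sensor of the endoplasmic reticulum (1.03 ± 0.22), and Atp2b4, a pump of the plasma membrane (2.0 ± 0.45). Ssbp2 and Atp2b4 were highest in prefrontal mice 1, 4 and 5 and lay within the hippocampal range in the other 3.

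**Figure D3:**
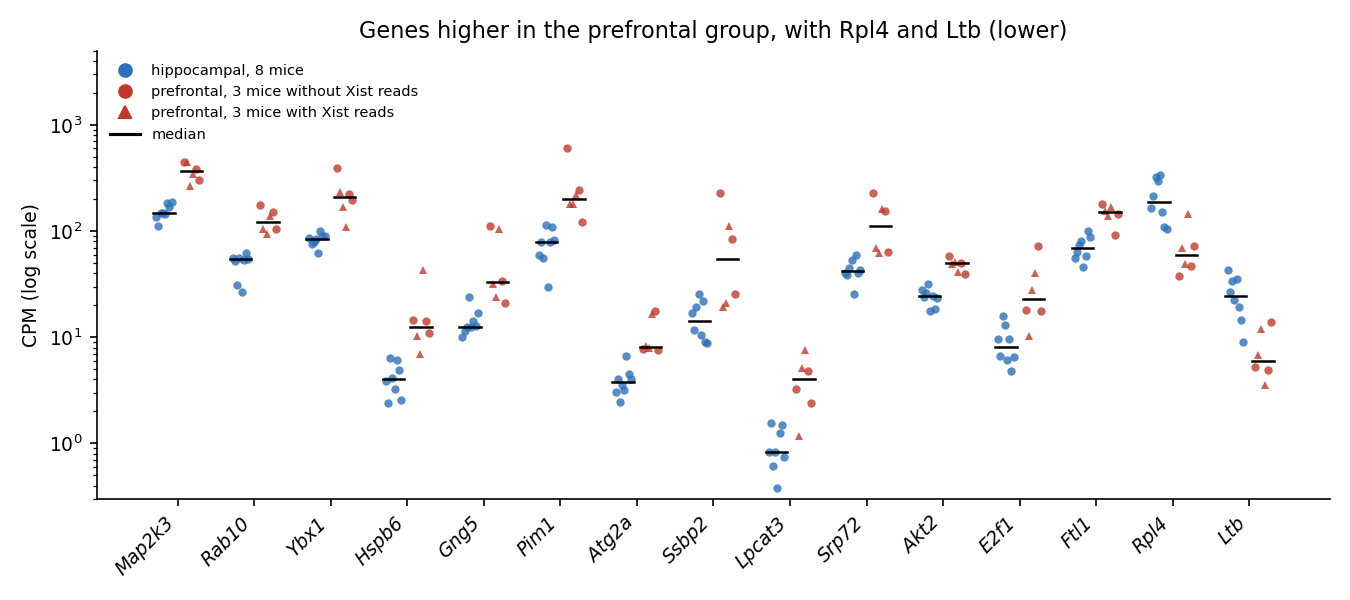
Level in CPM on a log scale of 13 higher DEGs and of the lower DEGs Rpl4 and Ltb in each of the 14 mice, with 1 point per mouse, triangles for mice with Xist reads and lines for medians. For Map2k3 the prefrontal mice lie at 265 to 452 CPM, above all hippocampal mice, and the higher DEGs kept their direction with total-read scaling, where 1 of the 34 was still a DEG.

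Red cell lists lay above 0 with almost no DEG. Of 19 erythroid membrane and regulator genes 18 had fitted levels above 0 (median 0.81), with Slc4a1, the anion exchanger, at medians of 3976 CPM in prefrontal and 1675 CPM in hippocampal mice (1.58 ± 0.40, FDR = 0.0698) and Epb41, protein 4.1 of the membrane skeleton, at 13891 and 11648 CPM (0.53 ± 0.36, FDR = 0.447). The median was 0.80 for haem synthesis and iron and 0.57 for 21 genes of organelle autophagy, where Bnip3l, which clears mitochondria from reticulocytes, stood at 0.70 ± 0.35 (FDR = 0.285). With total-read scaling these 3 medians were 0.020, 0.034 and -0.014, against -0.59 for all genes. Without prefrontal mice 1 and 4 they were 0.16, 0.14 and 0.11, against -0.11 for all genes. In sham mice the 3 medians were 0.068, 0.23 and 0.054, and in C57BL/6 mice -0.19, -0.23 and -0.13.

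None of 9 haemoglobin genes was a DEG (median 0.42, or -0.11 with total-read scaling, against -0.14 and -0.59 for all genes). The adult alpha globin Hba-a1 had 73381 to 451024 CPM (median 118425) in prefrontal and 5681 to 133248 CPM (median 13704) in hippocampal mice (2.09 ± 0.70, FDR = 0.121), and its near-identical copy Hba-a2, whose reads cannot be told apart securely, stood at 2.0 ± 0.71 (FDR = 0.138). The beta globins Hbb-bs and Hbb-bt stood at 0.23 ± 0.54 and -0.14 ± 0.62. In C57BL/6 mice Hba-a1 and Hba-a2 were higher DEGs (2.29 ± 0.50 and 2.3 ± 0.50, FDR = 0.0205 and 0.0200), and in sham mice they stood at 2.71 ± 0.67 and 2.81 ± 0.68 (FDR = 0.0765 and 0.0755). Over the 9 haemoglobin genes the median in sham mice was 1.34, with all 9 above 0 and 1 higher DEG. In C57BL/6 mice that median was -0.42, with 6 of the 9 below 0. The levels are those left after globin depletion.

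Platelet markers summed to 9519 to 16417 CPM (median 11198) in prefrontal and 4595 to 9946 CPM (median 8444) in hippocampal mice, a log2 difference of 0.63 (exact permutation p = 0.00266, adjusted over 13 lists p = 0.0195). It was 0.069 with total-read scaling (adjusted exact permutation p = 0.814) and 0.67 without the mice with Xist reads (adjusted p = 0.118 by the same exact test). In sham mice the sum was 9769 to 15859 CPM in prefrontal and 6296 to 8603 CPM in hippocampal mice, without overlap. In C57BL/6 mice the prefrontal sum was the lower one, with medians of 14598 against 22021 CPM and overlapping ranges. The sums in these other mice were not tested. In the 3xTg-AD tDCS mice none of the 25 platelet genes was a DEG, and Nrgn, a calmodulin-binding protein and the most abundant of them, stood at 0.94 ± 0.30 (FDR = 0.114). Gpx1, a glutathione peroxidase abundant in red cells, had 15383 to 56692 CPM against 5313 to 14443 CPM without overlap (1.29 ± 0.35, FDR = 0.0770). Its list of 22 antioxidant genes had a median of 0.48 and no DEG. With total-read scaling that median was -0.11, against -0.59 for all genes.

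White cell lists held no DEG and had medians of -0.76 for 15 neutrophil granule genes, 0.037 for 24 neutrophil surface and cytosol genes, -0.68 for 20 monocyte genes, -0.52 for 22 B cell genes, -0.23 for 24 T cell genes and -0.19 for 20 NK and cytotoxic genes. Summed levels did not pass the test for any of these lists, and for the neutrophil surface genes the difference of the sums was -0.35 (adjusted exact permutation p = 0.263 to 0.652). S100a9, the calprotectin subunit of neutrophils, had 1268 to 6120.5 CPM against 1735 to 14347 CPM (-0.59 ± 0.47, FDR = 0.534), and Igkc, the kappa light chain of B cells, 51.6 to 289 against 107 to 472 CPM (-0.68 ± 0.37, FDR = 0.325). Markers of skeletal muscle and of neurons and glia, other tissues near the electrode, summed to 2.93 to 14.2 and 21.5 to 46.6 CPM in prefrontal and 3.91 to 11.4 and 24.6 to 47.1 CPM in hippocampal mice (adjusted exact permutation p = 0.652 and 0.910).

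Lists of acute responses also held no DEG, with medians of -0.46 for 20 heat shock, -0.57 for 18 circadian clock, -0.14 for 22 immediate early, -0.095 for 18 glucocorticoid, -0.15 for 32 interferon and -0.42 for 22 NF-kappaB and cytokine genes. Hspa8, the constitutive heat shock cognate, had 44.0 to 109 CPM against 87.8 to 224 CPM (-0.63 ± 0.28, FDR = 0.232), and Rsad2, the interferon-induced viperin, 5702 to 23493 against 2883 to 9816 CPM (0.96 ± 0.38, FDR = 0.176). In the remaining lists (proteasome, respiratory chain, hypoxia and glycolysis, cell cycle, class II antigen presentation, eosinophil, basophil and mast cell, and innate receptors) no gene was a DEG, and medians lay between -0.47 and 0.29.

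The study ties 22 of the tested genes to tDCS in 3xTg-AD mice, a list chosen on samples that include these mice. None was a DEG. An unadjusted edgeR p under 0.05 was found for 7 higher and 2 lower genes, against 1152 higher and 1684 lower of all 15064. The median was 0.42, or -0.22 with total-read scaling, against -0.14 and -0.59 for all genes. Pabpc1, the cytoplasmic poly(A)-binding protein, had 13066 to 22297 CPM against 3625 to 11311 CPM without overlap (1.13 ± 0.31, FDR = 0.0798). The 30 genes tied to Alzheimer disease had a median of -0.097 and no DEG. Npy, which codes for neuropeptide Y, had 335 to 1289 CPM in prefrontal mice, 101 to 251 CPM in 7 hippocampal mice and 0.139 CPM in hippocampal mouse 7 (2.23 ± 0.65, FDR = 0.0920). All prefrontal mice were above all hippocampal mice, and without hippocampal mouse 7 the difference was 2.05 ± 0.33 (FDR = 0.00875).

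**Figure D4:**
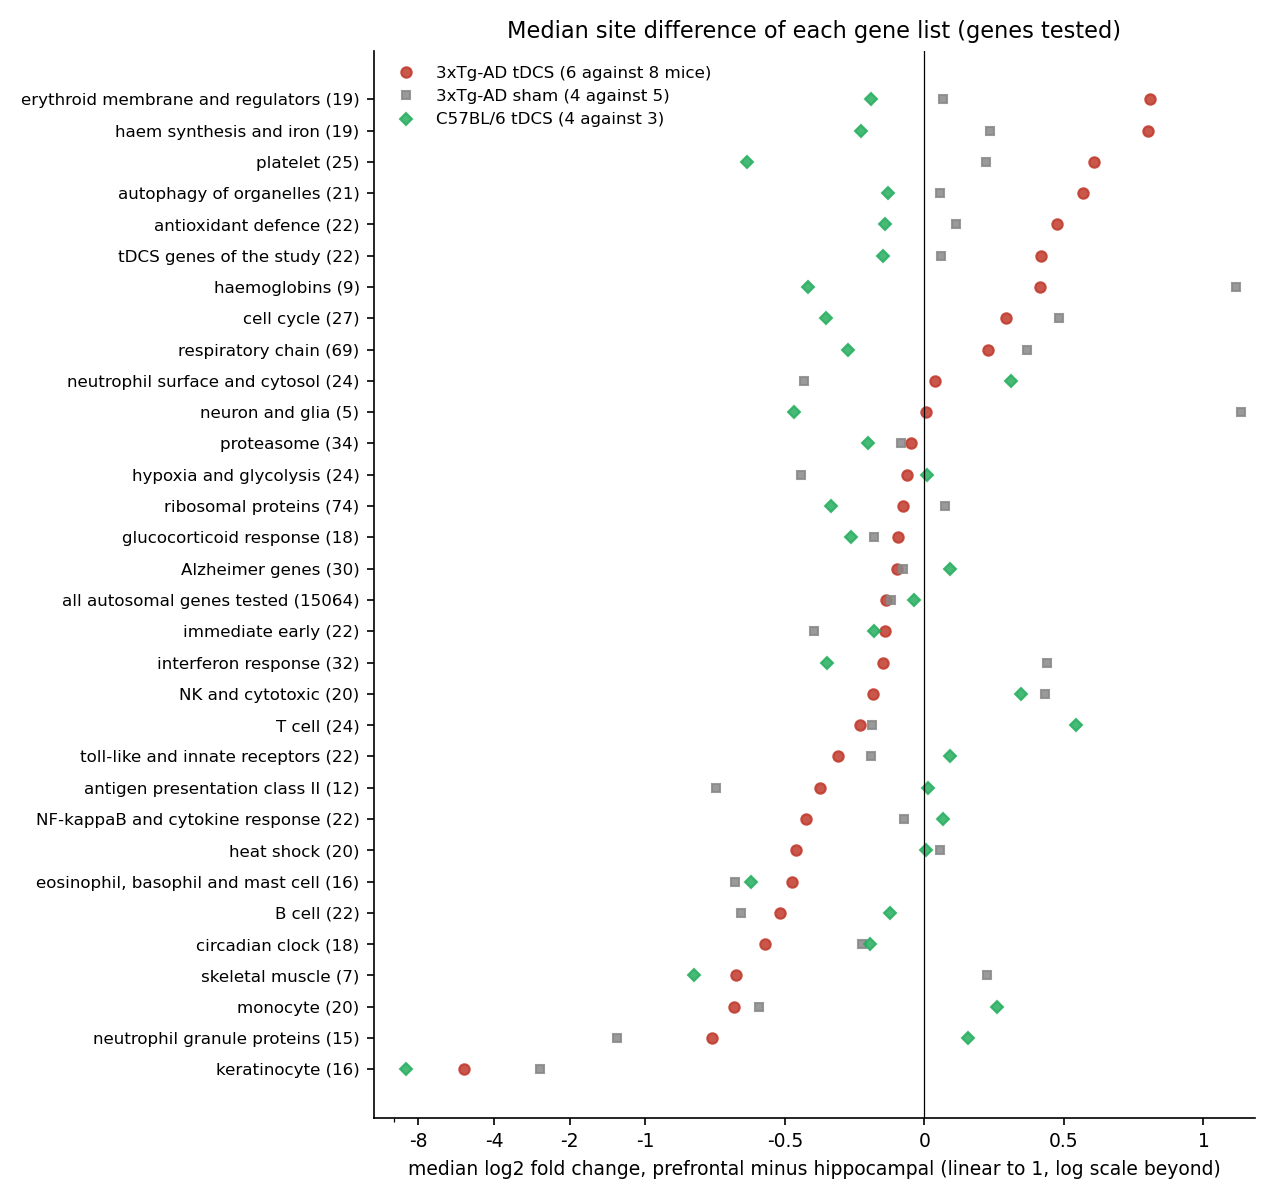
Median log2 fold change, prefrontal minus hippocampal, of each gene list in the 3 site comparisons, with the number of genes tested in 3xTg-AD tDCS mice in brackets, on an axis that is linear to 1 and logarithmic beyond. Keratinocyte genes have the lowest median in each comparison (-5.25 in 3xTg-AD tDCS mice). With total-read scaling some medians above 0 in these mice fell below 0. These were the haemoglobin, antioxidant, autophagy, respiratory chain, cell cycle, neutrophil surface, neuron and glia, and tDCS lists. The same scaling moved the median of all autosomal genes from -0.14 to -0.59.

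In the 9 sham mice, which received no current, 32 of 15050 autosomal genes were DEGs (0.213%), 15 higher (0.0997%) and 17 lower (0.113%), and 2451 (16.3%) had an unadjusted p under 0.05. The number of DEGs was 2 to 6 when any of 7 mice was left out, 349 and 407 without hippocampal mouse 5 and prefrontal mouse 2, and 0 with the haemoglobin share as covariate (1330 with an unadjusted p under 0.05). Of the 80 genes, 3 were DEGs there in the same direction, D5Ertd579e among the higher and Ltb and Rpl4 among the lower, which is 3.75% of the 80 and 9.38% of the 32. Ltb had 2.77 to 6.42 CPM in prefrontal and 7.96 to 47.4 CPM in hippocampal sham mice (-2.61 ± 0.44, FDR = 0.0355). For Rpl4 the values were 31.6 to 77.4 against 142 to 188 CPM (-1.72 ± 0.27, FDR = 0.0284). Leaving out single sham mice ended the call of Ltb in 7 and of Rpl4 in 6 of 9 fits. The same sign was found for 41 of the 46 lower genes (median -2.85) and 29 of the 34 higher genes (median 0.59). Keratinocyte markers summed to 5.43 to 280.4 CPM in prefrontal and 9.69 to 497 CPM in hippocampal sham mice, with overlap. In the sham prefrontal group 3 of the 4 mice had Xist reads, and without them edgeR called 0 genes (1264 with an unadjusted p under 0.05). That fit has 1 prefrontal mouse, assumed to vary like the 5 hippocampal mice, and does not show how the calls depend on the mice with Xist reads.

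In C57BL/6 mice after tDCS 424 of 15056 autosomal genes were DEGs between sites (2.82%), 21 higher (0.139%) and 403 lower (2.68%), and 2331 (15.5%) had an unadjusted p under 0.05. Of the 403 lower genes 249 had at most 3 reads in every prefrontal mouse. Of the 80 genes 34 were DEGs there in the same direction, all of them lower, which is 42.5% of the 80 and 8.02% of the 424. These 34 held 23 of the 24 genes with almost no prefrontal read. Lor had 0 to 0.0293 CPM in the 4 prefrontal and 17.0 to 76.6 CPM in the 3 hippocampal C57BL/6 mice (FDR = 7.72e-06), and Scd1 had 29.2 to 44.3 against 47.0 to 273 CPM (-1.9 ± 0.46, FDR = 0.0388). Keratinocyte markers summed to 15.4 to 37.0 CPM and 174 to 992 CPM, without overlap.

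The higher genes did not pass the test in C57BL/6 mice, where 30 of the 34 had the same sign with a median of 0.51. Map2k3 had 314 to 402 CPM in prefrontal and 246 to 377 CPM in hippocampal C57BL/6 mice (0.19 ± 0.28, FDR = 0.808), and in sham 3xTg-AD mice it had 219 to 569 against 182 to 295 CPM (0.75 ± 0.28, FDR = 0.196). The ranges of Map2k3 overlapped in both. Across genes, which are not independent replicates, the log2 fold changes of the 3xTg-AD tDCS mice had a Pearson r of 0.346 and a Spearman rho of 0.347 with those of the sham mice (15042 genes), and 0.489 and 0.217 with those of the C57BL/6 mice (15043 genes).

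**Figure D5:**
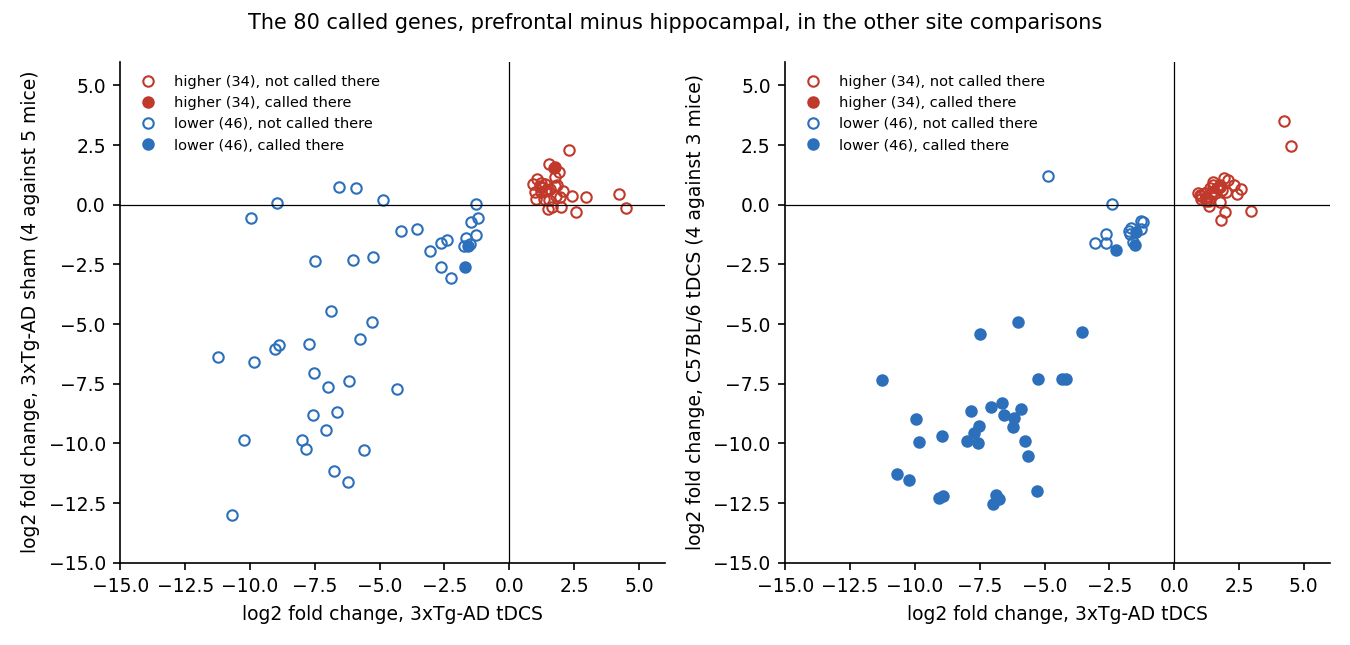
Log2 fold change, prefrontal minus hippocampal, of the 80 DEGs of the 3xTg-AD tDCS mice (horizontal axes) against that in sham 3xTg-AD mice (left) and C57BL/6 tDCS mice (right), with filled points for genes that were DEGs there too. Of the 46 lower genes 41 have the same sign in sham and 44 in C57BL/6 mice.

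Whether the site difference itself differed was tested as an interaction. For site by stimulation in the 23 3xTg-AD mice, edgeR called 0 of 15072 genes (0%), 1022 (6.78%) had an unadjusted p under 0.05, and DESeq2 called 1. For site by strain in the 21 tDCS mice, edgeR called 0 of 15077 genes (0%), 1351 (8.96%) had an unadjusted p under 0.05, and DESeq2 called 14. Of the 80 genes, 23 and 16 had an unadjusted p under 0.05 in these tests. The 80 genes were chosen on mice that both tests include, so these shares cannot be set against those of all genes. These counts show neither that the site differences were alike nor that they differed.

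Among the genes with the smallest interaction p were Spata5, an AAA ATPase (by stimulation, 3.28 ± 0.76, FDR = 0.587), Dbn1, the actin-binding drebrin (-10.51 ± 2.31, FDR = 0.587), and Zfp974, a zinc finger gene (-4.11 ± 0.98, FDR = 0.587). By strain they were Adtrp, a lipid hydrolase (7.53 ± 1.53, FDR = 0.498), Serping1, the C1 inhibitor (6.43 ± 1.43, FDR = 0.498), Ccdc61, a centriolar protein (-7.41 ± 1.79, FDR = 0.498), and Ly6g6c, a member of the Ly6 family (2.01 ± 0.45, FDR = 0.498). Most of these genes had few reads, but Ly6g6c had 13.4 to 37.1 CPM in prefrontal and 6.64 to 16.5 CPM in hippocampal 3xTg-AD mice after tDCS (1.19 ± 0.28, FDR = 0.0517).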

How the data were processed

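The authors prepared 3′ libraries from whole blood of single mice. Per the submitters' processing notes, cutadapt 1.14 and STAR 2.6 were used with mm10. The deposited values are read counts per gene, filtered by the authors on low counts and not normalized. The strand setting is not given in the sources used here. Of 15613 genes, 15607 were found in GENCODE M21 (GRCm38), 15078 on autosomes.

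Groups followed the labels. Genes with 1 read or more among the mice compared were tested in R 4.3.3 with edgeR 4.0.16 (TMM, quasi-likelihood), adjusted over all genes; SE is the fold change over the root of F. List levels and library measures were compared by exact permutation over mice. Members and lists were chosen with earlier results of these data known. Named genes were the 12 DEGs with the smallest p in each direction (no predicted or haemoglobin genes), up to 4 DEGs of each of 31 lists or else its most abundant gene, haemoglobin genes, 6 genes per interaction and up to 8 DEGs shared between comparisons; others were chosen after their values were seen. Alternatives were DESeq2 1.42.0, RLE factors, filterByExpr, haemoglobin share as covariate, haemoglobin genes left out, fits over more mice, limma 3.58.1 voom, sva 3.50.0 and leaving out each mouse. Total-read scaling and leaving out the mice with Xist reads, or those farthest out on the first component, were chosen after seeing the data. The main edgeR fit of each comparison and interaction was also run on simulated counts, and the alternatives were not.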

Additional observations from a re-analysis of the deposited data

Results flagged for a closer look

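In 70 group values screened for 1 mouse far from the others, 2 were flagged, where chance flags about 1 in 20. Cidea stood at 0.692 CPM in prefrontal mouse 2 and at 0 in the other 5 prefrontal mice, and Elovl3 at 0.148 CPM in prefrontal mouse 3 and at 0 in the other 5. Outside the autosomal genes, Xist had up to 394 reads in 3 of the 6 prefrontal mice and at most 8 in any hippocampal mouse.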

How the results depend on the processing

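No paired analysis was possible because replicate numbers were given in accession order and mark no shared animal or batch. All 80 genes kept their direction in each alternative that tested them (74 with filterByExpr). There were 705 DEGs with DESeq2 (415 higher, 290 lower) and 661 with all 42 mice in one fit (341 and 320). The 23 3xTg-AD mice of 6 months gave 271 (164 and 107), and total-read scaling gave 166 (1 and 165). Voom called 64 genes (38 higher, 26 lower), and 38 were called with 1 surrogate variable (2 of them higher). Without the mice with Xist reads there were 25 (22 and 3), and with the haemoglobin covariate 20 (3 and 17). Without prefrontal mice 1 and 4 there were 3 (1 and 2). The cause of these differences in number was not tested. With each mouse left out there were 16 to 128 (4 to 46 higher, 12 to 84 lower), namely 16, 50 and 26 without prefrontal mice 1, 4 and 5 and 29, 47, 36 and 128 without hippocampal mice 2, 3, 5 and 6. In sham mice there were 754 with DESeq2, 161 with filterByExpr, 0 with the haemoglobin covariate (1330 with an unadjusted p under 0.05), 0 without the mice with Xist reads (1264; 1 prefrontal mouse left, assumed to vary like the others), and 2 to 407 with each mouse left out (349 without hippocampal mouse 5, 407 without prefrontal mouse 2, otherwise 2 to 6). In C57BL/6 mice there were 684 with DESeq2, 265 with filterByExpr and 255 to 583 with each mouse left out (255 without hippocampal mouse 3, 281 and 282 without prefrontal mice 1 and 3). For the interactions DESeq2 called 1 gene by stimulation and 14 by strain, and with each mouse left out edgeR called 0 by stimulation and 0 to 1 by strain (1 without 3xTg-AD hippocampal mouse 5 or C57BL/6 prefrontal mouse 4).

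With each mouse left out, summed keratinocyte levels differed by -3.58 to -2.63 and platelet levels by 0.52 to 0.69 on the log2 scale. The platelet difference missed the threshold without prefrontal mouse 1, 2 or 3 and the keratinocyte difference without mouse 1 or 3 (adjusted exact permutation p = 0.0606 to 0.0909). Without the mice with Xist reads they were 0.67 and -3.45, and the platelet difference was 0.069 with total-read scaling. The mitochondrial share differed by -2.70 to -1.87 percentage points and passed without prefrontal mouse 6 or hippocampal mouse 6. Neuron and glia (-0.11 to 0.11) and skeletal muscle levels (-0.38 to 0.0089) crossed 0.

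Log2 fold changes of some named genes that were not DEGs changed sign. With the haemoglobin covariate these were Hbb-bs (-0.039), Spata5 (-0.082). With voom these were Hbb-bs (-0.19), Il1b (-0.027), Spata5 (-0.083), Serping1 (-0.25). With 1 surrogate variable these were Hbb-bs (-1.07), Bnip3l (-0.18), Psmd4 (-0.21), Cox6c (-0.45), H2-Eb1 (0.35), Trbc2 (0.017), Mylpf (-0.075), Spata5 (-0.077), Serping1 (-0.12), Hbb-bh1 (-0.036), Hbb-y (-0.76), Hbq1b (-0.086), Hbq1a (-0.0026). Without the mice with Xist reads these were Hbb-bs (-0.33), Trbc2 (0.067), Il1b (-0.59), Mbp (-0.045), Spata5 (-0.054), Serping1 (-1.47), Hbq1a (-0.028). Without prefrontal mice 1 and 4 these were Hbb-bs (-0.48), Psmd4 (-0.14), Cox6c (-0.25), H2-Eb1 (0.0035), Trbc2 (0.15), Spata5 (-0.16), Hbb-y (-0.21). With total-read scaling these were Hbb-bs (-0.52), Epb41 (-0.091), Bnip3l (-0.014), Psmd4 (-0.29), Cox6c (-0.45), Lyz2 (-0.51), Ccl5 (-0.050), Il1b (-0.032), Fcer1g (-0.26), Jund (-0.038), Csnk1d (-0.24), Mylpf (-0.047), Mbp (-0.43), Spata5 (-0.52), Serping1 (-0.10), Hbb-bh1 (-0.14), Hbb-y (-0.35), Hbq1a (-0.11). With each mouse left out, values crossed 0 for Hbb-bs (-0.41 to 0.42), Cox6c (-0.18 to 0.36), Lyz2 (-0.061 to 0.27), Trbc2 (-0.20 to 0.061), Mbp (-0.087 to 0.14), 1810014B01Rik (-0.20 to 0.99), Spata5 (-0.049 to 0.25), Serping1 (-0.20 to 0.62), Hbb-bt (-0.52 to 0.20), Hbb-y (-0.056 to 0.51). No called gene did so.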
